A study of Mus musculus with 6 samples.

Results

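The odorant signal transduction cascade of olfactory cilia was followed through 10 genes: Gnal, Gng13, Ric8b, Adcy3, Pde1c, Cnga2, Cnga4, Cngb1, Stoml3 and Omp. Members were all probe sets to which the platform annotation gave exactly 1 gene symbol from these 10 names. This gave 24 of the 45037 probe sets in the deposited table and 10 of 18193 genes. Pde1c had 6 of them, Adcy3 had 4 and Gnal had 3. Gng13, Ric8b, Stoml3 and Omp had 2 each, and Cnga2, Cnga4 and Cngb1 had 1 each. Of the 24, 19 passed the filter on low values and were tested, and each of the 10 genes kept at least 1.

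RNA came from olfactory epithelium, the sensory lining of the nasal cavity, of mouse pups aged 1 day, and each pup was measured on 1 array. The groups were 3 mutant and 3 wild-type pups, all on a mix of C57Black6/J and 129SvJ strains, and the RNA of both was amplified and labelled with biotin in the same way. By its title the series looked for genes under KLF7, a DNA-binding protein of the Krüppel-like family that developing neurons make. The labels call the first group only mutant, with no allele, sex or litter given in the sources used here. Numbers of arrays limit the precision throughout, since 3 arrays stood in each group. Total deposited intensity was 11056397 to 14439788 on the mutant arrays and 10064207 to 13320971 on the wild-type arrays, and the arrays numbered 3 in both groups stood apart on the first principal component, at 72.3 for the mutant and 129.4 for the wild type against -55.3 to -44.8 for the other 4. Klf7 itself had 4 probe sets, each lower on all mutant than on all wild-type arrays, by 4.44-fold and 8.32-fold in the 2 with no array at the floor.

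Olfactory sensory neurons detect odorants in cilia on their apical dendrite. An odorant receptor there activates the olfactory G protein, whose alpha subunit stimulates adenylyl cyclase, and the cyclic AMP that results opens a cyclic nucleotide-gated channel. Calcium that enters through the channel both amplifies the response and shuts it down, in part through a calcium-stimulated phosphodiesterase. This cascade works in mature neurons, so in a bulk tissue sample its RNA can follow the number of mature neurons as well as the RNA that each one holds. Fewer cells and less RNA per cell cannot be told apart here. Whether other cells of the tissue gave some of the members' RNA was not tested.

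Because several members stood lower together, their upstream sequences are shown before the values. RefSeq promoter windows of build GRCm38.p6 were matched for 8 of the 10 members, in 12 windows, and the 250 bases before each start were searched on both strands. Gnal and Omp are named only. Shown is 1 window each for the matched members that had a probe set at an unadjusted p under 0.05 by limma, in lower case from 5′ to 3′ on the gene's strand. Capitals mark matches to CCNCNCCC, a box of the kind Krüppel-like factors bind, and to TCCCNNGGG, the core of the sites bound by the Olf/EBF factors of olfactory neurons, or to the reverse complements GGGNGNGG and CCCNNGGGA. In the windows printed here no match of one motif overlapped a match of the other.
Gng13, chr17:25716922-25717171, plus strand: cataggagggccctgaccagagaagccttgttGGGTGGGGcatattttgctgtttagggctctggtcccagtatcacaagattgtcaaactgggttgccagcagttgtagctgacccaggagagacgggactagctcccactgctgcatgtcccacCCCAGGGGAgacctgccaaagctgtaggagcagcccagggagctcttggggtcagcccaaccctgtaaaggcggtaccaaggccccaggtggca
Adcy3, chr12:4133147-4133396, plus strand: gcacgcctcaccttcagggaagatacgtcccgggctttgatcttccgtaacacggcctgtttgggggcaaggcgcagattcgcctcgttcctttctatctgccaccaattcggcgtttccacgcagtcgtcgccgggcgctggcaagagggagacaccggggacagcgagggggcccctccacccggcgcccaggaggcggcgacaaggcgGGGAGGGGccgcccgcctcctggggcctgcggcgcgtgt
Cnga2, chrX:71991599-71991848, plus strand: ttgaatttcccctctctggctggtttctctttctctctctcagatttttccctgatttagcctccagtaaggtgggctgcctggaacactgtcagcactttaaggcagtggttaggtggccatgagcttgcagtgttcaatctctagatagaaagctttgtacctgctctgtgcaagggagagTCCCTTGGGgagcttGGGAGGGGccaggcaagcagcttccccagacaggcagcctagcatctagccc
Stoml3, chr3:53488457-53488706, plus strand: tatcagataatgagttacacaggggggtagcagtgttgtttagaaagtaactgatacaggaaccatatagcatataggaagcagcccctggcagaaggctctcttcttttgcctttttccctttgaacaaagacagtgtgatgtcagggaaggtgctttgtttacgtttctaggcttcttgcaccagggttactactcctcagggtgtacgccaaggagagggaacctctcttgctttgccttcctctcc

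Cnga2 held TCCCTTGGG starting 67 bases upstream of its start and GGGAGGGG starting 52 bases upstream. Gng13 held CCCAGGGGA at 94 bases and GGGTGGGG at 218 bases in the window shown. Adcy3 held GGGAGGGG at 39 bases, and the Stoml3 window held neither motif. Of the further windows of these genes, that of Adcy3 held neither motif, and that of Gng13 held GGGCGGGG at 123 bases but no Olf/EBF core. Among the matched members with no window shown, Ric8b and Pde1c held a Krüppel-like box and no Olf/EBF core. Cnga4 and Cngb1 held neither motif. The Olf/EBF core was present in the windows of 2 of the 8 members, against 6.45% of the 27025 genes in the table. The Krüppel-like box was present in 5 of the 8, against 48.5% of those genes, so it is a common string in such windows. A homeodomain core, TAATNA, was found in 3 of the 8, against 27.3%. A gene was counted if any of its windows held a match. By window, the Olf/EBF core was in 2 of 12, against 5.6% of all 32851 windows, and the Krüppel-like box in 7 of 12, against 45.9%. These are matches of letters and say nothing of binding.

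No member probe set passed the threshold over the whole table. With limma, 0 of 20967 probe sets tested, or 0%, had an adjusted p under 0.05, and the adjusted p of each of the 19 member probe sets was 1. At an unadjusted p under 0.05 limma had 5 of the 19 member probe sets lower in the mutant, against 0.362% of all probe sets tested, and 0 higher, against 0.138%. Over the whole table these shares were 76 lower and 29 higher, or 37 and 24 once arrays were scaled to equal medians instead. All these counts are far below the 5% that an unadjusted p under 0.05 would reach if nothing differed. The unadjusted p-values of this fit thus do not hold to that rate, and why was not tested. The groups did not overlap for 7 of the 19, all of them lower in the mutant, where 1.71% of all probe sets were lower without overlap and 0.935% higher. In all, 16 of the 19 had a negative log2 difference (mutant minus wild type) and 3 a positive one, and the median was -0.86, against -0.02 over all probe sets tested, of which 53.1% were negative. Several of the 19 measure the same gene and all lie on the same 6 arrays, so they are not independent of each other. The members were also chosen with earlier results of these data known. Their counts, shares and ranks therefore describe them and are no test of the cascade. With 1 probe set a gene, the one with the highest mean, 8 of 10 members were negative, with a median of -0.64.

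**Figure D1:**
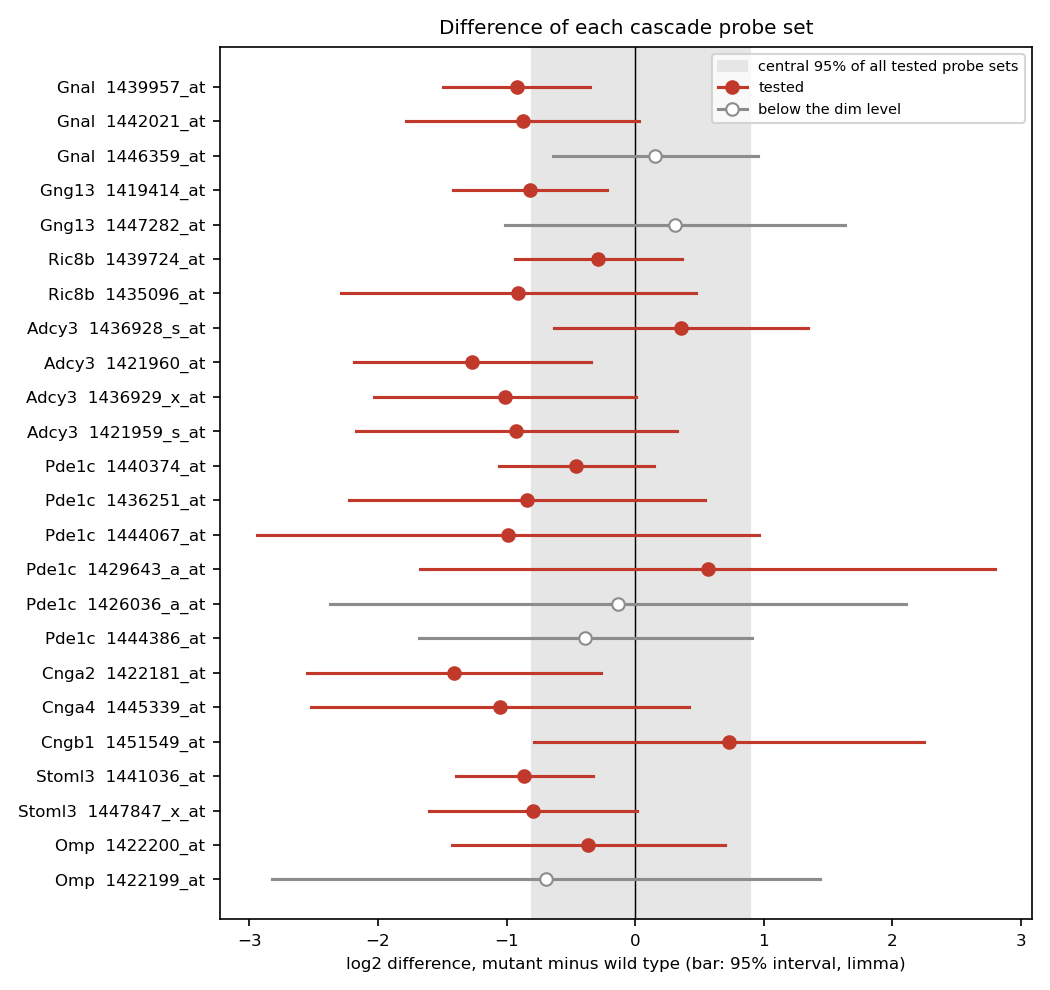
Log2 difference, mutant minus wild type (x axis), of each of the 24 member probe sets (y axis), with the 95% interval from limma as a bar; open grey points lay below the dim level and the grey band holds the central 95% of differences of all probe sets tested, -0.80 to 0.89. The intervals of 5 tested probe sets, of Gnal, Gng13, Adcy3, Cnga2 and Stoml3, lie wholly below 0.

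The G protein came first in order of signalling. Gnal encodes the alpha subunit of the olfactory G protein, which carries the signal from receptor to cyclase. Its probe set 1439957_at had normalized intensities of 548, 715 and 713 on mutant arrays 1, 2 and 3, against 1317, 1188 and 1211 on wild-type arrays 1, 2 and 3. Every mutant array was below every wild-type array, and the wild-type arrays lay close together. The log2 difference was -0.92 (SE 0.26, 95% interval -1.49 to -0.35), or 1.89-fold lower, with a limma unadjusted p of 0.00454. Of all probe sets tested, 1.40% had a lower difference. With arrays scaled to equal medians instead, the unadjusted p by limma was 0.0734, with a difference of -0.91. As the mean of the Gnal probe sets the difference was -0.55 (limma, unadjusted p = 0.131). The second tested Gnal probe set, 1442021_at, had 337, 373 and 640 in mutant and 785, 488 and 1289 in wild type. Its difference was -0.87 (SE 0.41), but mutant array 3 was above wild-type array 2, so the groups overlapped (limma, unadjusted p = 0.0571). It was -0.52 without wild-type array 3. The third, 1446359_at, was dim, at or below the floor on 2 arrays of each group, and differed by 0.16.

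Gng13 encodes the gamma subunit found with that alpha subunit in cilia. Probe set 1419414_at read 902, 730 and 954 in mutant and 1997, 1490 and 1157 in wild type. Mutant values lay in a narrow band, while the wild-type ones spread widely, and the closest approach was between the arrays numbered 3. The difference was -0.82 (SE 0.27), or 1.76-fold lower (limma, unadjusted p = 0.0122). Without wild-type array 1 it was -0.62 with an unadjusted p of 0.072 by limma. The other Gng13 probe set, 1447282_at, was dim and differed by 0.31.

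Ric8b encodes an exchange factor that acts on the olfactory alpha subunit and helps it accumulate. Its brighter probe set, 1439724_at, had 713, 572 and 726 in mutant and 958, 631 and 888 in wild type, a difference of -0.29 (SE 0.30, 95% interval -0.93 to 0.36). Each mutant array was below the wild-type array of its own number, but the groups overlapped, and the difference ran from -0.47 without wild-type array 2 to -0.17 without wild-type array 1. Probe set 1435096_at was lower by more, at -0.91 (SE 0.63), from 87.1, 54.7 and 50.3 in mutant against 200, 74.4 and 107 in wild type, again with overlap, and by -0.52 without wild-type array 1. Neither was at an unadjusted p under 0.05 by limma.

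Adcy3 encodes the adenylyl cyclase of olfactory cilia, and its probe sets disagreed. Probe set 1421960_at had 339, 309 and 170 in mutant against 919, 612 and 439 in wild type, with no overlap. The difference was -1.27 (SE 0.42), or 2.40-fold lower (limma, unadjusted p = 0.0115), and -0.99 without wild-type array 1 (limma, unadjusted p = 0.0677). Probe set 1436929_x_at, with 153, 113 and 188 in mutant and 329, 206 and 391 in wild type, was also lower without overlap, by a log2 difference of -1.01 (SE 0.47; limma, unadjusted p = 0.052). Probe set 1421959_s_at differed by -0.92 (SE 0.57) with overlap. The brightest, 1436928_s_at, went the other way, with 256, 664 and 697 in mutant and 450, 457 and 273 in wild type. Mutant array 1 was the lowest of all 6 and the other two mutant arrays the highest, giving 0.36 (SE 0.45). Names ending in _s_at or _x_at mark probe sets whose probes can match more than 1 transcript, so 1421960_at is the only Adcy3 probe set here without that mark. With any 1 array left out, 1436928_s_at ran from 0.11 without mutant array 3 to 0.83 without mutant array 1, and it was -0.14 without both arrays numbered 3.

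Pde1c encodes the calcium-stimulated phosphodiesterase that breaks down cyclic AMP in cilia. Its brightest probe set, 1440374_at, read 749, 761 and 707 in mutant and 1081, 792 and 1217 in wild type. The 3 mutant values were nearly equal and below all wild-type values, though wild-type array 2 was close to them. The difference was -0.46 (SE 0.28, 95% interval -1.06 to 0.15; limma, unadjusted p = 0.124), and -0.29 without both arrays numbered 3. Probe sets 1436251_at and 1444067_at differed by -0.84 (SE 0.63) and -0.99 (SE 0.89), and 1429643_a_at by 0.56 (SE 1.02), all with overlap. The intervals of these 3 spanned more than 2 log2 units each, and each moved with single arrays. Mutant array 1 of 1444067_at, at 11.6, and wild-type array 1 of 1429643_a_at, at 8.05, lay below the floor. Probe set 1436251_at differed by -0.44 without wild-type array 1, 1444067_at by -0.07 without mutant array 1, and 1429643_a_at by -0.16 without wild-type array 1, -0.13 without mutant array 3 and 1.44 without mutant array 1. Dim probe sets 1426036_a_at and 1444386_at differed by -0.13 and -0.39.

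The 3 subunits of the channel had differences of both signs. Cnga2 encodes the principal subunit, which can form a channel by itself. Its probe set had 136, 76.8 and 91.9 in mutant and 356, 165 and 307 in wild type, so even the lowest wild-type array was above the highest mutant array. The difference of -1.41 (SE 0.52, 95% interval -2.55 to -0.27), or 2.65-fold lower, was the lowest of the 19, and 0.229% of all probe sets tested lay below it (limma, unadjusted p = 0.0199). That p was 0.10 without wild-type array 1, 0.0528 without mutant array 2 and 0.0633 without both arrays numbered 3, with differences of -1.19, -1.23 and -1.24.

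Cnga4 encodes a modulatory subunit that speeds the channel's closing by calcium and calmodulin. It read 54.0, 36.0 and 93.7 in mutant and 135, 64.3 and 188 in wild type. Mutant array 3 exceeded wild-type array 2, but each mutant array was below its same-numbered partner, and the difference was -1.05 (SE 0.67; limma, unadjusted p = 0.145). Cngb1, the other modulatory subunit, had 50.8, 143 and 183 in mutant and 58.3, 110 and 45.0 in wild type. Its groups overlapped, with a difference of 0.73 (SE 0.69, 95% interval -0.78 to 2.25), or 0.09 without both arrays numbered 3. With single arrays left out it ran from 0.37 without mutant array 3 to 1.29 without mutant array 1. Whether the 3 subunits differ from each other in their response was not tested.

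Stoml3, a stomatin-like membrane protein of olfactory cilia, gave the smallest unadjusted p of the members. Probe set 1441036_at had 723, 817 and 922 in mutant and 1618, 1393 and 1452 in wild type, with a wide gap between the groups. The difference was -0.86 (SE 0.24, 95% interval -1.39 to -0.33), or 1.82-fold lower (limma, unadjusted p = 0.00427). Its rank by p was 14 of 20967, next to Gnal 1439957_at at 15. With arrays scaled to equal medians instead, its unadjusted p by limma was 0.0893, with a difference of -0.85. The second probe set, 1447847_x_at, read 469, 534 and 1127 in mutant and 1154, 861 and 1469 in wild type, so mutant array 3 lay inside the wild-type range, with a difference of -0.79 (SE 0.37).

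Omp encodes a small cytoplasmic protein that is the usual marker of mature olfactory neurons. Its tested probe set, 1422200_at, had 188, 171 and 267 in mutant and 448, 242 and 169 in wild type. Wild-type array 3 was the lowest of the 6 and wild-type array 1 the highest, so the groups overlapped fully. The difference was -0.36 (SE 0.48, 95% interval -1.43 to 0.70), which was 0.02 without wild-type array 1. With the arrays numbered 3 left out of both groups it was -0.88. The dim probe set 1422199_at differed by -0.69 (SE 0.87).

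**Figure D2:**
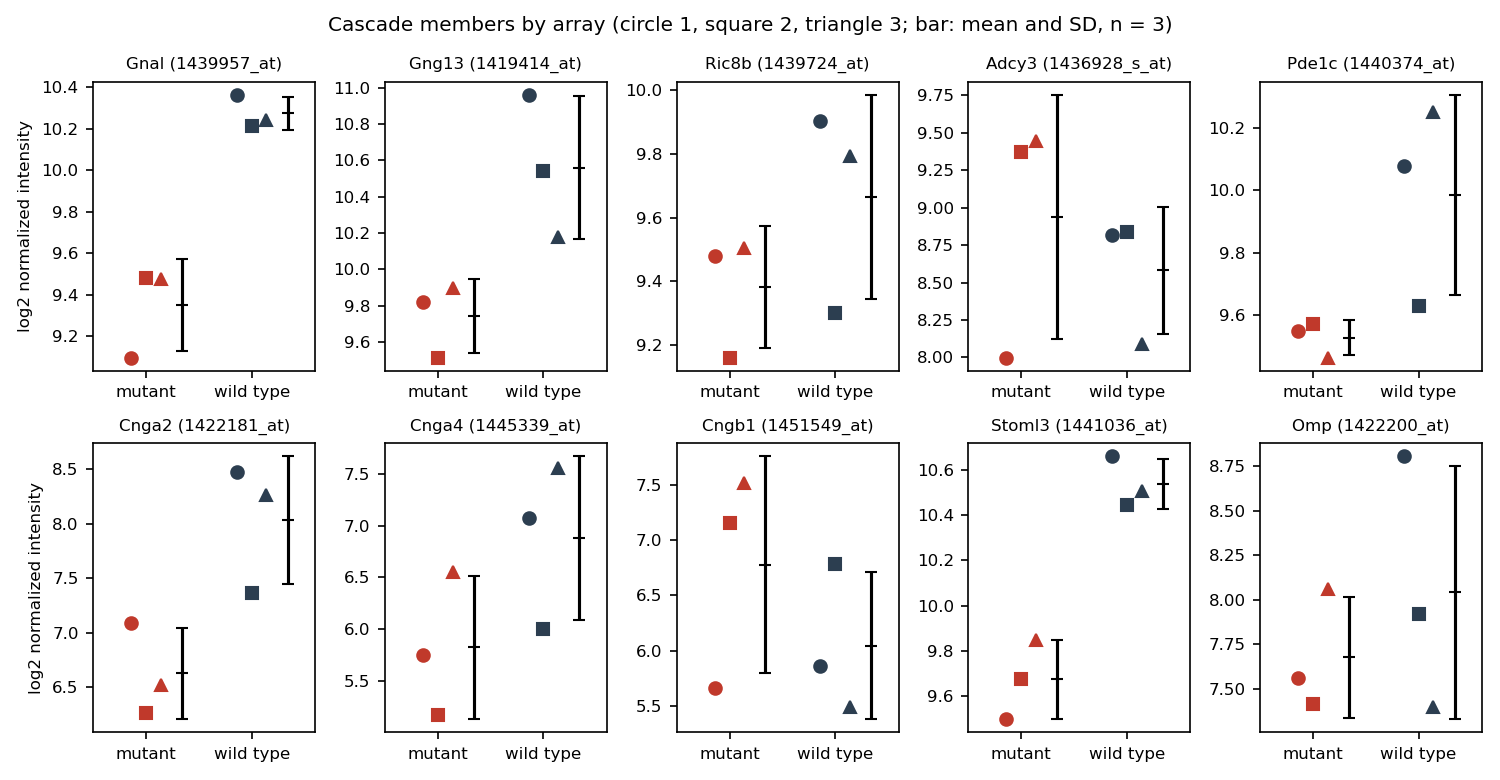
Log2 normalized intensity (y axis, a separate range in each panel that does not start at 0) of the brightest probe set of each of the 10 members on the 3 mutant arrays (left, red) and 3 wild-type arrays (right, dark), with mean and SD beside them. The groups are separate for Gnal, Gng13, Pde1c, Cnga2 and Stoml3 and overlap for the other 5.

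Arrays of the same number deviated together, so the members were also compared within numbers. The median log2 difference of the 19 was -1.22 between the arrays numbered 1, -0.44 for number 2 and -0.78 for number 3, against 0.01, -0.10 and -0.02 over all probe sets tested. Within all 3 numbers 12 of the 19 were lower in the mutant, against 9.76% of all probe sets tested, and 1 was higher, Pde1c 1429643_a_at, against 6.18%. When the number entered the fit as a block, limma had 9 of the 19 lower at an unadjusted p under 0.05, against 0.806% of all probe sets, and 0 higher, against 0.534%. Added to the 5 already given were Gnal 1442021_at, Adcy3 1436929_x_at, Stoml3 1447847_x_at and Cnga4, with block p of 0.0222, 0.0287, 0.0223 and 0.0444. The adjusted p of all 19 stayed at 1 by limma with the block. Leaving out wild-type array 1 took the count without the block to 2 of 19, Gnal 1439957_at and Stoml3 1441036_at, against 0.205% of all probe sets lower, and the whole table then had 43 lower and 148 higher. Leaving out wild-type array 2 took it to 8, against 0.639%, with 134 lower and 195 higher in the whole table. Scaling the arrays to equal medians, without quantile normalization, also gave 2, Adcy3 1421960_at and Cnga2, against 0.176%. Without both arrays numbered 3, which stood apart, the count was also 5 of 19, with Stoml3 1447847_x_at in and Cnga2 out, against 0.615%, and the median of the 19 was -0.85. That median stayed between -0.99 and -0.66 when any 1 array was left out.

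**Figure D3:**
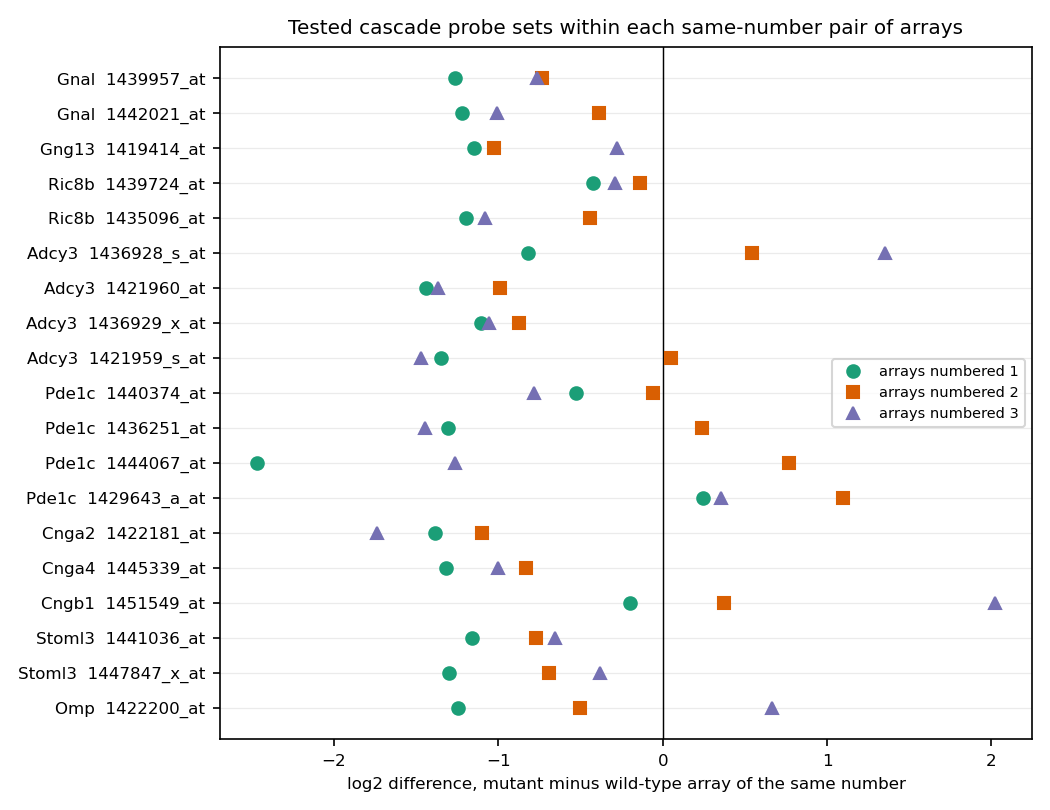
Log2 difference between the mutant and the wild-type array of the same number (x axis) for the 19 tested member probe sets (y axis), one symbol per number. All 3 symbols lie left of 0 for 12 probe sets, and Cngb1 and Adcy3 1436928_s_at spread to both sides.

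Other markers of mature olfactory neurons also stood lower. Of the 7 genes listed, 6 were measured and tested, and all 6 were lower, where 53.1% of all probe sets tested were. Their median was -0.87, against -0.64 for the 10 members, both with 1 probe set a gene. At an unadjusted p under 0.05 limma had 4 of them lower, against 0.362% of all probe sets tested. Carns1, the carnosine synthase, had 109, 90.0 and 80.2 in mutant and 344, 279 and 293 in wild type, a difference of -1.72 (SE 0.46). Slc17a6, the vesicular glutamate transporter of these neurons, differed by -1.05 (SE 0.32). The calcium-binding protein S100a5 differed by -0.66 (SE 0.23) and the neuropeptide gene Cartpt by -0.90 (SE 0.36). Summed over the 6, normalized intensity was 3201 to 4053 in mutant and 5895 to 7018 in wild type. The mean log2 level of these 6 differed by -0.98 between mutant and wild type, and the 6 were chosen with earlier results of these data known. Set against that mean level on the same array, Gnal differed between mutant and wild type by 0.06, Stoml3 by 0.12, Gng13 by 0.16 and Cnga4 by -0.07. In that order the exact permutation p, two-sided, was 0.9, 0.4, 0.8 and 0.9. Cnga2 differed by -0.43, Ric8b by 0.70, Pde1c by 0.52, Omp by 0.62, Adcy3 1436928_s_at by 1.34 and Cngb1 by 1.71. That Adcy3 probe set was taken as the brightest and is the only one of its gene that was higher in the mutant. Adcy3 1421960_at, which differed by -1.27 between the groups, was not set against that mean. Of these 10 comparisons with that mean the exact permutation p, two-sided, was smallest for Ric8b and Pde1c at 0.1, the smallest that 3 arrays against 3 can give, and 0.4 after Benjamini-Hochberg adjustment. Set against Omp on the same array, the differences were -0.56 for Gnal, -0.46 for Gng13, -0.50 for Stoml3, -1.05 for Cnga2 and -0.69 for Cnga4. They were 0.08 for Ric8b, -0.09 for Pde1c, 0.72 for Adcy3 1436928_s_at and 1.10 for Cngb1, and the smallest exact permutation p of these 9 was 0.2, or 0.45 adjusted.

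Genes that flank the cascade, in receptor transport, chloride loading and the ending of the response, were read from the same fit. Of 30 listed, 22 were measured and 19 tested, 13 lower and 6 higher, with a median of -0.04. By limma 0 were at an unadjusted p under 0.05 and 0 at an adjusted one, and with the block 1 was at an unadjusted p under 0.05. That gene was the calcium sensor Vsnl1, at -1.21 (SE 0.73), with an unadjusted p of 0.125 by limma and of 0.022 by limma with the block. Rgs2, which restrains G protein signalling, differed by -0.48 (SE 0.38), and the arrestin Arrb2 and the calcium pump Atp2b2 by 1.15 (SE 0.92) and 0.80 (SE 0.64). Arrb2 had 269, 245 and 420 in mutant and 350, 346 and 21.1 in wild type, so wild-type array 3 stood far below the rest, and within numbers 1 and 2 the mutant was lower. Atp2b2 had 191, 179 and 207 in mutant and 43.9, 123 and 250 in wild type, with wild-type array 1 far below the rest. The receptor kinase Grk3 differed by -0.03. Slc12a2, which loads chloride into these neurons, differed by -0.004 (SE 0.154), and the receptor transport protein Reep1 by -0.11 (SE 0.37).

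Of 40 relatives of the members outside the cascade, 26 were tested, 16 lower and 10 higher, with a median of -0.09, and limma had 0 at an unadjusted p under 0.05 with or without the block. Among other G protein subunits and the related exchange factor Ric8a, 9 of 13 were lower, with a median of -0.19. Gnas, the stimulatory alpha subunit of most other cells, differed by -0.06 (SE 0.21) beside -0.92 for Gnal, Gnb1 by -0.09, and Gng8, the gamma subunit of immature olfactory neurons, by -0.27. The smallest p values there were those of Gng3, Gna11, Gnao1 and Gng2, with differences of -0.82 (SE 0.59), 0.47 (SE 0.41), -0.42 (SE 0.40) and -0.19 (SE 0.19). The other cyclases had 2 of 5 lower and a median of 0.005, from Adcy7 at -0.29 to Adcy9 at 0.29. The other phosphodiesterases had 3 of 5 lower and a median of -0.07, from Pde2a at -0.19 to Pde4d at 0.22. Stomatin itself, Stom, differed by -0.18 and its relatives Stoml1 and Stoml2 by -0.40 and 0.05. Related channel subunits, 4 of them measured, were all below the dim level and not tested.

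Markers of other cells in the dissection moved as follows. For immature olfactory neurons 8 of 11 were lower, with a median of -0.27 and a summed level of 19891 to 21134 in mutant and 21076 to 24963 in wild type, and the microtubule regulator Stmn2 differed by -0.94 (SE 0.23). With the block, limma had 4 of these 11 lower at an unadjusted p under 0.05, Stmn2, Crmp1, Tubb3 and Gap43, against 0.806% of all probe sets tested. Without the block it had 1, Stmn2. The 3 that were not lower were Stmn1, Ncam1 and Nhlh2, at 0.05, 0.005 and 0.19. So a part of this list, and not all of it, stood lower beside the members. Progenitor genes had 4 of 5 lower and a median of -0.20. Sustentacular and gland genes, 8 of 8 higher, had a median of 0.25, and their summed level was 15033 to 16239 in mutant and 9313 to 16710 in wild type. Wild-type array 3 held that lowest sum, and within numbers 1, 2 and 3 the medians were -0.05, 0.08 and 0.76. For horizontal basal cells 5 of 5 were higher, with a median of 0.50 but 1.59, -1.86 and 1.36 within numbers 1, 2 and 3. Squamous genes had a median of -0.41 and 2.12, -5.43 and 1.78 within numbers, with summed levels of 125 to 1718 in mutant and 238 to 4304 in wild type. Multiciliated genes had 6 of 7 higher and a median of 0.17. Ensheathing glia, leukocyte and fibroblast or cartilage genes had medians of 0.26, 0.01 and 0.09. Respiratory secretory and vomeronasal genes, 2 tested of each, had medians of 0.10 and 0.09, and the 2 tested for guanylyl cyclase D neurons -0.18. The 1 erythroid gene tested, Alas2, differed by 0.63. Of olfactory bulb genes, 2 of 7 were bright enough to test, Cdhr1 at -0.75 (SE 0.30) and Neurod2 at 0.27, while Tbx21 and Th, which mark bulb neurons, were at the floor on all 6 arrays. Across these lists limma had Stmn2 and Cdhr1 at an unadjusted p under 0.05, and with the block also Crmp1, Tubb3, Gap43 and, higher in the mutant, the sustentacular gene Sec14l3. The part of these cells in the members' differences was not tested.

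**Figure D4:**
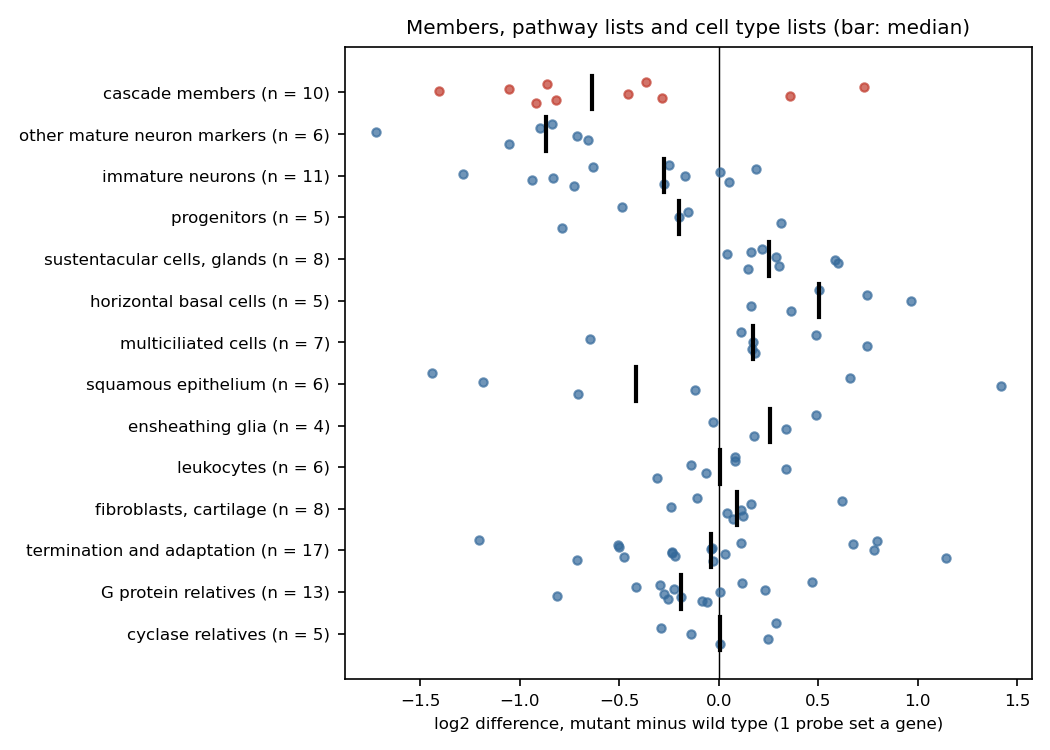
Log2 difference, mutant minus wild type (x axis), of each tested gene in the cascade (top row, red) and in 13 other lists (blue), with 1 probe set a gene and the median as a bar. The medians of the cascade at -0.64 and of the other mature neuron markers at -0.87 lie lowest among the lists drawn.

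The 6 genes whose profile over the 6 arrays was nearest to the mean profile of the 10 members were H2-DMb2, Cdc42, Ska2, Tenm2, Hspa4l and Hnrnpab. Likeness was the root-mean-square difference between profiles centred on their own mean, on the log2 scale, and it was 0.09 to 0.14 for these 6, against a median of 0.60 over the probe sets tested. That mean profile was -0.46, -0.33 and 0.02 on mutant arrays 1, 2 and 3, and 0.49, 0.10 and 0.17 on wild-type arrays 1, 2 and 3. None of the 6 was at an unadjusted p under 0.05 by limma, with differences of -0.58 to -0.34.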

How the data were processed

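Per the labels, total RNA of olfactory epithelium was extracted with a column kit, amplified and labelled with biotin, 1 pup per array. The deposited table holds linear intensities, 1 for each probe set on each array. The sources used here do not say how probes were condensed, background corrected or scaled. The 6 arrays were quantile normalized, a floor was set at the 20th percentile (12.56) and log2 was taken, so differences near the floor are understated. Printed intensities are normalized values without the floor.

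Names came from the platform annotation, in which 34945 probe sets carried 1 symbol, 932 several and 9160 none. Probe sets with 1 symbol were tested unless their mean was in the lowest 40% (below 5.19 on the log2 scale), which left 20967. The 2-group fit used limma 3.58.1 (R 4.3.3) with lmFit and a trended eBayes. Its two-sided p-values were adjusted by Benjamini-Hochberg over all probe sets tested, at a threshold of 0.05. SE and interval are limma's moderated ones. The fit was tested on simulated data.

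Every member probe set was named. From each further pathway list the text names up to 4 genes of smallest p, and where a gene outside this is named (Gnas, Gnb1, Gng8, Grk3 and the cell type markers) it was chosen for its role or after its value was seen. Members and lists were chosen with earlier results of these data known. The labels call the arrays of a group biological replicates, and p-values measure the spread between them. Deviations from group means correlated across probe sets at 0.49, 0.22 and 0.58 between mutant and wild-type arrays numbered 1, 2 and 3. As all exceeded 0.1, differences within same-numbered arrays are also given, and the fit with the number as a block was an alternative. The main fit was unpaired and did not use the number. Mutant array 1 also correlated at 0.18 with wild-type array 2, so number 2 is the weakest pair. Other alternatives changed the dim filter, normalization, floor, variance model, array weights, choice of probe set and arrays used.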

Additional observations from a re-analysis of the deposited data

How the results depend on the processing

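Of 357 member differences recomputed under 20 alternatives, 6 changed sign and 0 had an adjusted p under 0.05 by limma; the count of all probe sets past the threshold was 0 in each. The number of member probe sets at an unadjusted p under 0.05 (5) was 2 with array medians set equal, 8 with array weights, 3 with the mean of a gene's probe sets (of 10 genes), 9 with the replicate block, and 2 to 8 with any 1 array left out. The lower and higher counts over the 20967 probe sets tested were 37 and 24 with medians set equal and 131 and 58 with array weights. They were 169 and 112 with the block. With the mean of a gene's probe sets they were 59 and 24, which count genes and not probe sets. As shares of all probe sets tested, those lower were 0.176% with medians set equal and 0.806% with the block, against 0.362% in the main fit. They were 0.205% without wild-type array 1, which gave 2 member probe sets, and 0.639% without wild-type array 2, which gave 8. The count over all probe sets (105) was 377 without the dim filter, 61 with medians set equal, 189 with array weights, 281 with the replicate block, 188 without both arrays numbered 3, and 115 to 329 with any 1 array left out. Of the 105, 76 were lower in the mutant; without wild-type array 1 43 of 191 were, without wild-type array 2 134 of 329, and without wild-type array 3 129 of 208. With any 1 array left out, the members' median was -0.99 to -0.66. Adcy3 1436928_s_at (0.36) was -0.12 with array weights, -0.71 as the mean of the gene's probe sets and -0.14 without both arrays numbered 3. Pde1c 1429643_a_at (0.56) ran from -0.16 to 1.44 and Omp 1422200_at (-0.36) from -0.69 to 0.019 with any 1 array left out. Where a value changed, the cause was not tested.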
